A study of Glycine max with 46 samples.

Results

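RNA levels in dry soybean seed were compared with those in seed at late desiccation, the last stage of drying on the plant that was sampled. The comparison takes 6 of the 21 biological replicates of a series on soybean (Glycine max, genotype Williams 82), 3 labelled dry seed and 3 labelled late desiccation, sequenced in 13 of the 45 runs that have values. Both groups share genotype and growth conditions, and the labels name no treatment other than the stage itself. The tissue label reads whole seed but the extraction text names embryos, so which parts of the seed were in the RNA cannot be told from them. Replicates are numbered as biological replicates, and p-values measure the spread between those samples. The other stages of the series, used here for context, are early and mid desiccation and seed imbibed for 3, 16 and 27 h, imbibition being the water uptake with which germination begins.

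An orthodox seed such as that of soybean ends its development by losing most of its water. Transcription and translation slow as water is lost, and a large pool of messenger RNA is kept in the dry embryo, some of which is translated early after water uptake. Levels in a dry seed are therefore shaped by what is still made in the last days of drying and by what is degraded or kept. In bulk RNA, fewer cells of a type and less RNA per cell cannot be told apart.

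Values are the deposited normalized counts, read counts divided by a scaling factor for each run. The table names genes by ID only, and 0 of the 53407 IDs kept matched the reference gene table, so no gene is given a name or a role, the labelled tissue could not be checked against marker genes, and no sequence is shown. The IDs Glyma13g01791 to Glyma13g12220, 768 in all, were left out for their lack of reads in dry seed (10 reads over its runs). The tests took the 46508 remaining genes that had 10 normalized counts or more in 3 or more replicates. Depth in mega-reads (M) was 45.9, 51.3 and 51.8 M in dry seed replicates 1 to 3, and 50.4, 49.7 and 2.53 M in late desiccation replicates 1 to 3.

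The runs of a replicate did not hold the same values. Across 11095 genes with a mean of at least 200 normalized counts over both stages, run 1 and run 2 of the same late desiccation replicate correlated at r = 0.855 and 0.860 on the log2 scale. Run 1 of replicate 1 correlated with run 1 of replicate 2 at 0.968, and run 2 with run 2 at 0.983. In late desiccation a run was thus more like the same-numbered run of the other replicate than like the other run of its own. Late desiccation replicate 3, which has values for run 1 alone, correlated at 0.943 with the first runs of replicates 1 and 2 and at 0.787 to 0.794 with their second runs. In dry seed, run 1 and the middle run of replicates 2 and 3 correlated at 0.997, while run 1 and the last run of the same replicate correlated at 0.913 to 0.931. Each r was computed over genes, not over independent samples.

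Genes that mark this difference were taken from other stages. In mid desiccation and at 3 and 16 h, 28 genes on 17 chromosomes were at least 32-fold higher in run 1 than in the last run in all 9 replicates, and 23 genes on 13 chromosomes were at least 32-fold lower. In late desiccation, the median level of the 28 genes was 915 to 1345 normalized counts in the 3 first runs and 5.99 to 7.34 in the 2 last runs. The median level of the 23 genes was 0 to 17.7 in the first runs and 610 to 650.1 in the last runs. Dry seed followed another pattern. In its runs the 28 genes had medians of 560 to 653 in the 3 first runs, 503 to 546 in the 2 middle runs and 0 to 6.17 in the 3 last runs, while the 23 genes stayed at 944 to 1615 in every run. First runs of the 2 stages therefore lay on opposite sides for the 23 genes, while last runs lay on the same side for both gene groups. The pattern of dry seed first runs was not limited to that stage. Middle runs of early desiccation replicate 2 and of 27 h replicate 3 had medians of 467 to 698 for the 28 genes. For the 23 genes their medians were 474 to 1388. The left-out IDs on chromosome 13 also differed between the runs of late desiccation. They held 4201 to 4624 reads in each first run and 325 to 523 in each last run despite the greater depth. Runs of dry seed held 0 to 4 reads each, but these IDs were left out for their lack of reads there. That level therefore follows from the choice. The 2 middle runs of other stages held 0, and the last runs of the same replicates 1 (early desiccation) and 0 (27 h). What distinguishes the runs is not given in the sources used here.

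**Figure D1:**
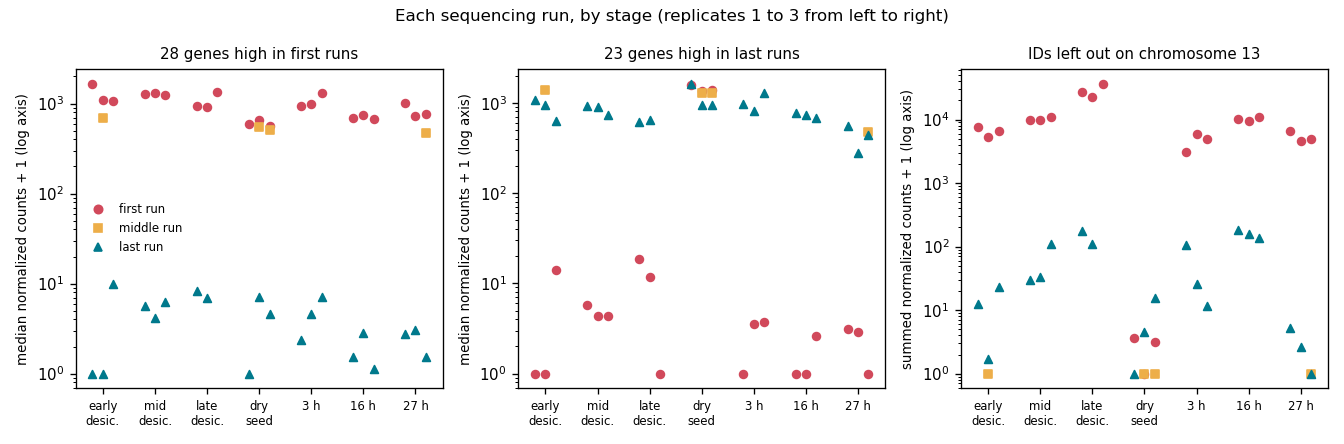
Each point is 1 sequencing run, placed by stage and replicate, with colour and shape giving its place among the runs of that replicate. Left and middle, median normalized counts plus 1 (log axis) of the 28 genes high in first runs and the 23 genes high in last runs; right, summed normalized counts plus 1 of the chromosome 13 IDs that were left out. Last runs lie together in every stage in the left and middle panels, while the first runs of dry seed and the middle runs of all stages are high in both.

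For this reason 2 results are given side by side: the comparison of replicate means over all runs, 3 against 3, and the comparison of last runs alone, 3 dry seed replicates against late desiccation replicates 1 and 2. The second was chosen after the run difference had been seen. Both used limma on log2(value + 1) with all 7 stages in 1 fit, and a gene was called when its Benjamini-Hochberg adjusted p was under 0.05 and its change at least 2-fold. With replicate means, 1858 of 46508 genes were called (4%), of which 692 rose from late desiccation to dry seed (1.49%) and 1166 fell (2.51%). With TMM, a scaling that assumes most genes do not change, the balance turned to 3162 rises and 351 falls. edgeR gave 2809 and 350. Both took reads summed over the runs of a replicate, so the weight of each run changed along with the scaling. DESeq2 on the same summed reads gave 935 rises and 1861 falls. Without dry seed replicate 1 the number called was 1211. With last runs alone, 4606 of 47114 genes were called (9.78%), 1016 rising (2.16%) and 3590 falling (7.62%). Here too the excess of falls turned into an excess of rises, with 2997 rises and 1838 falls under TMM, 2992 and 477 with edgeR, and 1045 and 569 with the 2 stages fitted alone. The number called was 2121 without dry seed replicate 1, 9197 without dry seed replicate 2, and 760 and 1181 without late desiccation replicates 1 and 2.

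On the deposited scale, most of the falling calls between last runs were of genes at low level. Genes with a mean under 200 normalized counts made up 3444 of the 3590 falls and 117 of the 1016 rises. The median level of these 36158 low genes was 47.3 and 38.6 normalized counts in late desiccation replicates 1 and 2, and 3.37, 22.9 and 18.0 in dry seed replicates 1 to 3. Dry seed replicate 1 was the lowest, and all 3 dry seed replicates lay below both late desiccation replicates. Without dry seed replicate 1 the number of low genes that fell was 1215, and without late desiccation replicate 1 it was 92. The genes with stage means under 2 normalized counts at 16 and 27 h followed the same order. These 7365 genes averaged 9.95 and 7.75 normalized counts in the last runs of late desiccation, and 0.357, 3.69 and 2.56 in those of dry seed. In replicate means they averaged 9.38, 7.28 and 0.892 in late desiccation and 0.388, 3.55 and 2.56 in dry seed. The means were 0.201, 0.179 and 9.78 in early desiccation, 2.89 to 5.01 in mid desiccation and 1.39 to 4.53 at 3 h. The level of low genes thus moved with single libraries, and its part in the low-gene calls was not tested. The remaining gene sets are of abundant genes.

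Among abundant genes, more were called as higher in dry seed than as lower. Of 10733 genes with a mean of at least 200 normalized counts in the replicate means and in the last runs, 892 rose between last runs (8.31%) and 134 fell (1.25%). Without late desiccation replicate 1 or 2 the falls numbered 10 and 11. With replicate means the same genes gave 438 rises (4.08%) and 280 falls (2.61%), and 706 rises and 187 falls without late desiccation replicate 3. The median log2 change of all 10733 genes was 0.37 between last runs and 0.22 with replicate means, so the typical abundant gene was itself higher in dry seed on the deposited scale. In last runs these genes held 86.1% of the normalized total in late desiccation and 92.9% in dry seed. The share was 90.9% and 91.0% in early and mid desiccation, 91.5% at 3 h, 86.1% at 16 h and 68.3% at 27 h. Their median level was 471 in late desiccation and 605 in dry seed. It was 562 and 548 in early and mid desiccation, and 566, 513 and 400 at 3, 16 and 27 h. Dry seed thus lay nearer than late desiccation to mid desiccation and 3 h. Whether the share is tied to the level of low genes was not tested. TMM moved the median change of all tested genes by 0.32 on the log2 scale. Under it, 2668 abundant genes rose and 26 fell between last runs, and 2486 rose and 48 fell with reads summed over runs. Rises outnumbered falls in each of these fits, and between last runs the number of falls moved with the scaling.

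**Figure D2:**
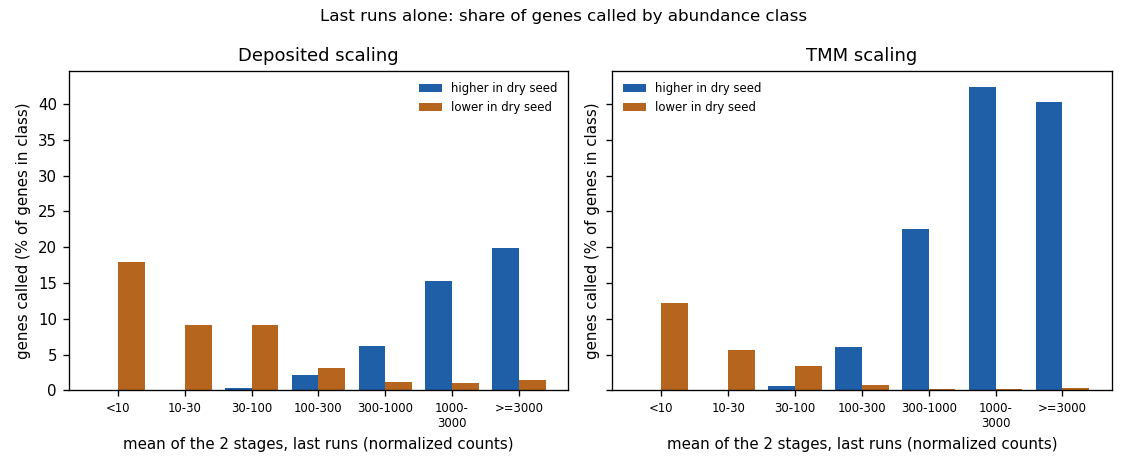
Share of genes called between last runs (per cent of the genes in a class, y axis) by the mean level of the 2 stages (normalized counts, x axis), higher in dry seed in blue and lower in brown, with the deposited scaling on the left and TMM on the right. Rises reach 19.9% of genes at 3000 normalized counts or more and falls 17.9% of genes under 10 with the deposited scaling.

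Calls on abundant genes were then followed from replicate means to last runs. Of the 438 genes that rose with replicate means, 434 were also higher between last runs and 345 were called (78.8%). Of the 280 that fell, 267 were also lower and 118 were called (42.1%), which is 1.1% of the abundant genes. Seen from the last runs, the shared genes were 38.7% of the 892 rises and 88.1% of the 134 falls. The fits share their dry seed replicates and late desiccation replicates 1 and 2, and the last runs lack late desiccation replicate 3, so the overlap is a description and the choice of run and the loss of that library cannot be told apart in it. Of 17 abundant genes called with a rise of at least 8-fold in the replicate means, 0 had such a rise between last runs. Of these 17, 3 changed less than 2-fold between last runs. Genes with a rise of that size that were not called are not among the 17. Some of those uncalled genes also changed less than 2-fold between last runs. Averaged runs without late desiccation replicate 3 gave 1 called rise of at least 8-fold among the abundant genes. Of 7 called with a fall of at least 8-fold in the replicate means, 1 kept that size between last runs. Averaged runs without late desiccation replicate 3 gave 5 such called falls.

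**Figure D3:**
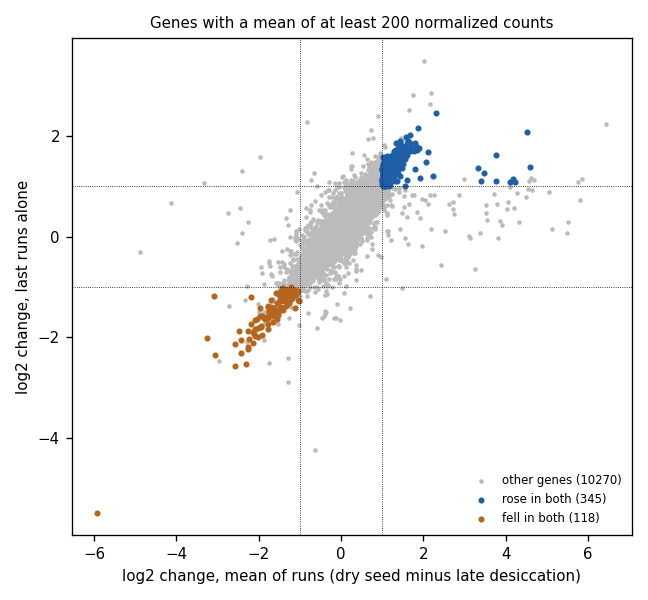
Log2 change from late desiccation to dry seed with replicate means over all runs (x axis) and between last runs alone (y axis) for the 10733 abundant genes; each point is 1 gene, dotted lines mark 2-fold. The 345 genes that rose in both (blue) and the 118 that fell in both (brown) lie mostly along the diagonal, and a string of grey points at the right has large changes in the replicate means and small ones between last runs.

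The 345 genes that rose in both results were a broad set with modest changes. They lay on all 20 chromosomes. Their median log2 change between last runs was 1.31, with a highest of 2.45, and 4 of them rose at least 4-fold. Their median level was 497 and 496 normalized counts in the last runs of late desiccation replicates 1 and 2, and 1407, 1230 and 1244 in those of dry seed replicates 1 to 3. In the first runs it was 520, 544 and 642 in late desiccation replicates 1 to 3, and 1429, 1231 and 1233 in dry seed. These medians describe genes chosen as higher in fits of the same runs, so their separation follows from the choice. As a share of the normalized total they held 2.96% and 2.93% in late desiccation and 6.76%, 6.74% and 6.40% in dry seed (last runs). For 329 of the 345, the first and last run of a replicate lay within 2-fold of each other in all 5 replicates with both. All but 1 of the 345 were also called with TMM scaling of the summed reads and of the last runs. That gave 344 genes called as higher in 4 fits (3.21% of the abundant genes). Since TMM moves changes upward, it is no separate check of rising genes. Without dry seed replicates 1, 2 and 3 in the last runs, 297, 332 and 334 of the 344 were called. Dropping late desiccation replicate 1 or 2 leaves 1 late desiccation library in the last runs, too few for a count to be relied on. Counted afresh without dry seed replicates 1, 2 and 3, 251, 394 and 377 abundant genes rose in both results. When late desiccation replicate 3 was dropped, 596 did.

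The 118 genes that fell in both results also lay on all 20 chromosomes, with 1 on an unplaced scaffold. Their median log2 change between last runs was -1.40, the largest fall was -5.49, and 12 fell at least 4-fold. Their median level was 649 and 684 normalized counts in the last runs of late desiccation and 265, 219 and 240 in those of dry seed. First runs gave 776, 819 and 790 in late desiccation and 287, 206 and 249 in dry seed. The separation of these medians too follows from how the genes were chosen. With TMM scaling of the summed reads and of the last runs, 18 of the 118 were called as lower (0.168% of the abundant genes). Their median log2 change between last runs was -1.86 on the deposited scale. These 18 genes had a median level of 1103 and 1164 in the last runs of late desiccation and 328, 243 and 242 in those of dry seed. Without late desiccation replicate 1 in the last runs 5 of the 18 were called, and without late desiccation replicate 2 also 5. Counted afresh without dry seed replicates 2 and 3, 66 and 77 abundant genes fell in both results. Without late desiccation replicate 1 or 2, the last runs hold 1 late desiccation library, too few for a count to be relied on.

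The other stages give the levels before and after. In last runs, the median level of the 344 genes higher in dry seed was 518 in early, 554 in mid and 495 in late desiccation, then 1295 in dry seed. After imbibition it was 729 (3 h), 564 (16 h) and 394 (27 h). Dry seed was the stage of highest level for 300 of the 344 (87.2%), against 35.9% of all abundant genes, and late desiccation for 0. The choice of genes that rose into dry seed bears on this count. The 18 genes lower in dry seed had medians of 1163, 1225 and 1148 through early, mid and late desiccation, then 271 in dry seed, and after imbibition 781 (3 h), 810 (16 h) and 356 (27 h). Dry seed was the lowest stage for 12 of the 18, which were chosen as low there, and 27 h for 5. Over all abundant genes dry seed was lowest for 7.03% and 27 h for 52.1%.

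**Figure D4:**
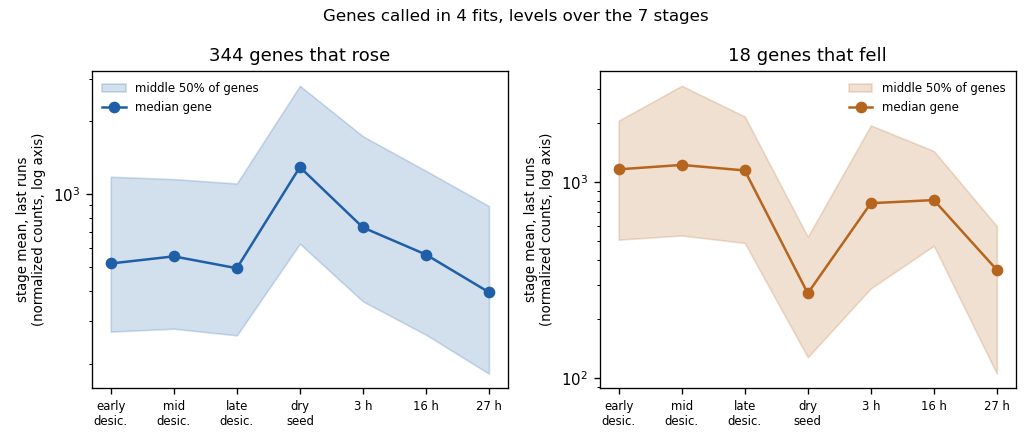
Levels over the 7 stages in last runs (stage mean in normalized counts, log axis) of the 344 genes that rose and the 18 that fell in 4 fits; points and line give the median gene and the band the middle 50% of genes. The median of the first group peaks in dry seed at 1295 and that of the second has its lowest value there, 271.

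Mid desiccation and 3 h after imbibition, the stages to either side, share no sample with dry seed or late desiccation. Their libraries were in the same fits, however, and so entered the spread used to call the genes. The counts below are therefore a description and not a separate test of those genes. In last runs, 3 h against mid desiccation called 1.07% of 47114 genes as higher and 2.62% as lower. Of the 344 genes higher in dry seed, 38 were called as higher at 3 h than in mid desiccation and 8 as lower (2.33%). All 10733 abundant genes gave 2.58% and 4.58%. The median log2 change from mid desiccation to 3 h was 0.53 for the 344 genes and 0.10 for all abundant genes. With TMM scaling 53 of the 344 were called as higher and 5 as lower, beside 4.12% and 2.73% of all abundant genes. For 294 of the 344 genes (85.5%) the 3 h level was within 2-fold of the mid desiccation level, a smaller share than the 91.5% of all abundant genes. Of the 18 genes lower in dry seed, 0 were called as higher at 3 h than in mid desiccation and 3 as lower, and 15 were within 2-fold (83.3%, against the same 91.5%).

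Stage means that stood apart from every other stage gave another count. A stage stood above with a mean of at least 100 normalized counts, and below where every other stage had at least 50. In last runs, 110 genes were more than 2-fold higher in dry seed than in each of the 6 other stages, and 182 were more than 2-fold lower. TMM scaling gave 59 and 130. In late desiccation 290 genes stood above every other stage and 6 below with the deposited scaling, and 4 and 34 with TMM. The numbers were 109 above and 51 below at 16 h and 3148 above and 2408 below at 27 h (deposited scaling), so dry seed was not the stage that stood apart most. At 4-fold, 1 gene stood above and 3 below in dry seed. Replicate means over all runs gave 173 above and 198 below at 2-fold, and 12 above and 33 below at 4-fold. Of the 33 genes, 2 were also 4-fold below every other stage in last runs.

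The 2 largest rises and the 2 largest falls among genes that stayed called with TMM scaling, with edgeR, with a replicate block and without each replicate showed how runs entered the replicate means. Of 299 rising and 117 falling genes that met this rule, 237 and 75 were also called in the same direction between last runs. None of the 4 was.

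Glyma11g33922 had the largest fall of the 117 in replicate means, with a log2 change of -14.89 ± 1.56 (SE, limma adjusted p 6.35e-05). Its level in late desiccation was 209859, 167946 and 329881 normalized counts in the first runs of replicates 1 to 3, but 0.333 and 3.00 in the last runs of replicates 1 and 2. In dry seed it was 0, 20.8 and 7.40 in first runs, no more than 16.3 in middle runs, and 0 in all 3 last runs. In late desiccation it was high in first runs alone, and in last runs it did not reach the level for testing.

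Glyma09g28800 behaved the same way, with a log2 change of -13.67 ± 1.51 (SE, limma adjusted p 9.39e-05) in replicate means. Late desiccation gave 491577, 332795 and 658114 normalized counts in first runs and 52.0 and 43.3 in last runs. Dry seed gave 9.19, 66.1 and 62.4 in first runs and 0, 12.3 and 18.0 in last runs. Between last runs its log2 change was -2.94 ± 1.63 (SE, limma adjusted p 0.168). First runs of mid desiccation held 17181, 47592 and 25637, so the high value was not limited to late desiccation.

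Glyma06g44380 had the largest rise of the 299 in replicate means, at 6.45 ± 1.45 on the log2 scale (SE, limma adjusted p 0.0115). Without late desiccation replicate 3 the change was 4.15, and with the 2 stages fitted alone it was not called (SE 2.26, limma adjusted p 0.281). In late desiccation it was 5.90, 5.39 and 0 normalized counts in first runs and 260.4 and 207 in last runs. In dry seed it was 4131, 2478 and 2168 in first runs, 2328 and 2141 in middle runs, and 1700.2, 944 and 833 in last runs. All dry seed values lay above all late desiccation values within the last runs, where the log2 change was 2.24 ± 0.78 (SE, limma adjusted p 0.0558).

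Glyma16g10851 differed in sign between the 2 results, though its fall between last runs was not called. Its log2 change was 4.96 ± 0.69 in replicate means (SE, limma adjusted p 0.000147) and -3.38 ± 1.21 between last runs (SE, limma adjusted p 0.0598). Dry seed held 3070, 2289 and 2037 normalized counts in first runs, 1193 and 1188 in middle runs and 0, 1.76 and 3.61 in last runs. Late desiccation held 76.8, 32.3 and 43.4 in first runs and 26.7 and 20.3 in last runs. The rise was present in the first and middle runs of dry seed and absent from its last runs. Those last runs held 0, 1 and 1 reads of this gene, and the last runs of late desiccation 80 and 61. Genes with a mean under 200 normalized counts had a median log2 change of -1.85 between last runs. Middle runs of early desiccation replicate 2 and of 27 h replicate 3 held 412 and 444.

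**Figure D5:**
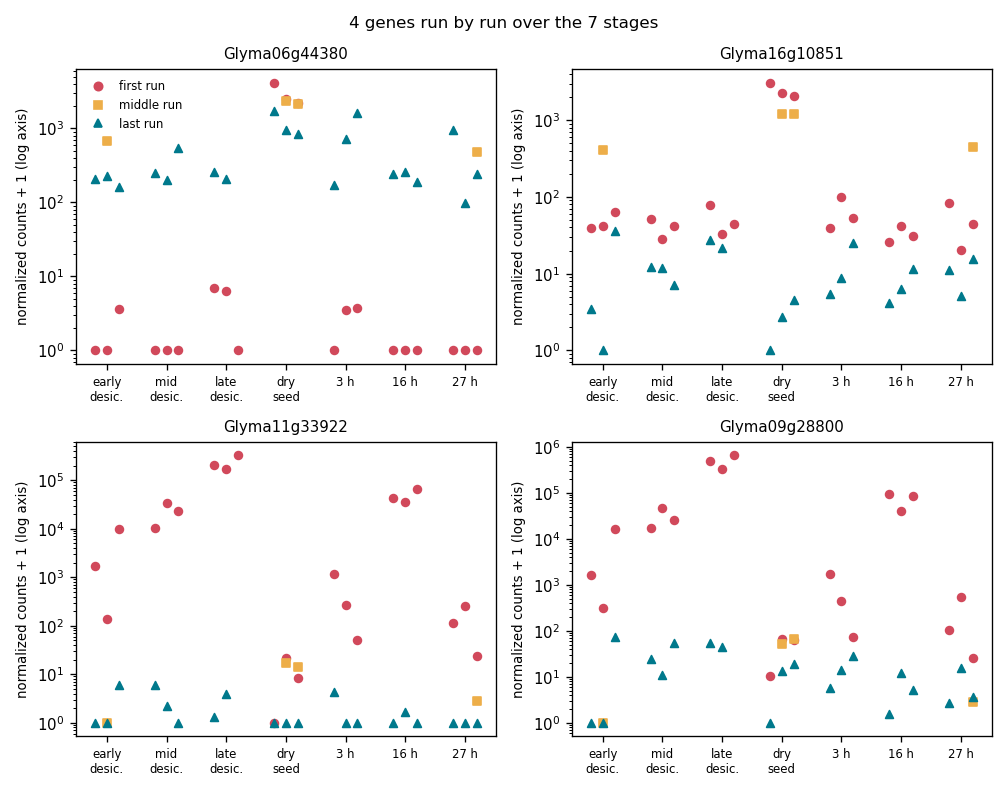
Normalized counts plus 1 (log axis) of 4 genes in each sequencing run, by stage, with replicates 1 to 3 from left to right and colour and shape for the place of the run. Glyma11g33922 and Glyma09g28800 are high in the first runs of late desiccation and of other stages only, and Glyma16g10851 is high in the first and middle runs of dry seed, near or above 1188, and at most 3.61 in its last runs.

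A gene that passed from at least 100 normalized counts in every late desiccation replicate to under 10 in every dry seed replicate was counted as switched off. There were 4 such genes with replicate means and 0 in last runs, and 0 genes switched on in either.

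The make-up of the libraries was compared by designs too small to pass a threshold of 0.05. In last runs the 100 most abundant genes held 28.1%, 25.8% and 26.7% of the normalized total in dry seed, and 28.1% and 27.3% in late desiccation (p = 0.6, exact permutation test, two-sided, 3 against 2). With replicate means the share was 26.9% ± 1.25 in dry seed and 31.1% ± 3.43 in late desiccation (SD, n = 3 each; exact permutation test, two-sided, p = 0.1, adjusted over 4 measures 0.2). Every dry seed replicate, at 25.8% to 28.3%, lay below every late desiccation replicate, at 28.4% to 35.0%, and that p is the smallest possible. The smallest p these designs allow is 0.2 for 3 against 2 and 0.1 for 3 against 3. Drawn down to 2000000 reads, the last runs of dry seed held a read for 26827, 40648 and 38586 genes and those of late desiccation for 48751 and 47627 (exact permutation test, two-sided, p = 0.2). Every dry seed replicate was below both late desiccation replicates, and dry seed replicate 1 was far below the other 2. With replicate means, in which late desiccation replicate 3 enters, the numbers overlapped, at 35527 ± 7423 in dry seed and 42126 ± 10487 in late desiccation (SD, n = 3 each; exact permutation test, two-sided, p = 0.5, adjusted 0.6).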

How the data were processed

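Per the labels' protocols, a Qiagen kit with DNase treatment gave the RNA and an Illumina TruSeq kit the libraries. Trimmomatic 0.38 and HISAT2 are named per the submitters' processing notes. Genome build, annotation, counting tool and strand use: not given in the sources used here. Genes that overlap or have near-identical copies are therefore uncertain. The authors deposited a signal value for each gene in each run, a read count over a factor for that run (DESeq-normalized, by the table's own name). In every run 100% of values were whole multiples of 1 read within 0.001 reads, so whole reads were recovered. The runs of both stages held 2.53 to 47.3 M reads, which sets the precision of low values. Not used: 1 column without a matching sample label.

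Runs were averaged per replicate. limma 3.58.1 (R 4.3.3; variance trend, robust moderation, no replicate block, 7 stages) tested log2(value + 1), a scale that understates changes of low genes. TMM scaling, edgeR 4.0.16 and DESeq2 1.42.0 were run on recovered reads summed over runs. For last runs alone, TMM and edgeR took the reads of those runs. The last-run fit takes the highest-numbered run of each replicate with more than 1 run. The test procedure was checked on simulated counts with the same spread setting for every gene and no difference between runs. That check does not cover the run differences seen here. Permutation tests used scipy 1.17.1. The members and lists were chosen with earlier results of these data known. Genes named are called genes of non-overlapping replicates, with a higher stage mean of at least 100, called the same way in 10 fits, from the largest change down, 2 rising and 2 falling. Lists of seed proteins and tissue markers could not be applied, since 0 IDs matched the 59048 genes of the reference table (assembly Glycine_max_v4.0).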

Additional observations from a re-analysis of the deposited data

How the results depend on the processing

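With replicate means, 1858 genes were called and 37.2% of them rose. Genes called, rose and fell, with the share that rose, were 3513, 3162, 351 and 90.0% with TMM scaling, 3159, 2809, 350 and 88.9% with edgeR, 2796, 935, 1861 and 33.4% with DESeq2, and 1088, 515, 573 and 47.3% with 2 stages alone. A mean of at least 200 gave 886, 490, 396 and 55.3%, no fold threshold 4089, 2585, 1504 and 63.2%, and last runs alone 4606, 1016, 3590 and 22.1%. Leaving out late desiccation 3 and early desiccation 3 gave 9140, 1035, 8105 and 11.3%, and dry seed 1 as well 4363, 878, 3485 and 20.1%. The share was 40.3% with a pseudocount of 5 and 41.8% with run 1 alone. Leaving out 1 replicate gave 1211 (dry seed 1) to 2579 (late desiccation 3) calls, 461 to 906 rises, 750 to 1673 falls and shares of 35.1% to 50.3%.

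Last runs alone gave 1614 calls with 569 falls for 2 stages alone, 2997 rises and 1838 falls with TMM, 2992 and 477 with edgeR, and 1110 calls with 192 falls at a mean of at least 200. Leaving out 1 replicate gave 760 (late desiccation 1) to 9197 (dry seed 2) calls, 658 to 1130 rises and 102 to 8067 falls. The abundant genes called in both results were 2023 rises and 18 falls with TMM, 1962 and 13 with edgeR, and 225 to 596 rises and 8 to 114 falls without 1 replicate.

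Replicate numbers do not pair the samples: deviations of same-numbered replicates correlated at -0.073, -0.050 and -0.089. A replicate block gave 1773 calls with replicate means and 8128 with last runs, 7031 of them falls. Without the block these were 1858, 4606 and 3590. What the block took up in last runs was not tested.

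Among named genes, Glyma16g10851 was at -3.38 in last runs, where it was not called, against 4.96 in replicate means. Genes switched off numbered 4 in replicate means, 0 with TMM, 10 in run 1 alone, 7 at limits of 200 and 20, 0 in last runs and 4 to 6 without 1 replicate. Genes switched on numbered 0, then 1 with TMM, 12 in run 1 alone and 0 to 1 without 1 replicate. The cause of these differences was not tested. Weights per library did not converge and are not reported. Depth limits the lone run of late desiccation 3, where 1 read is worth 8.68 normalized counts, and floors and intervals are not given for fits.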
